A study of Mus musculus with 6 samples.

Results

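The 9 genes described here govern how liver makes, stores, releases and takes up glucose: Pck1, G6pc, Slc37a4, Fbp1, Pcx, Pklr, Gys2, Pygl and Slc2a2. They were chosen by name, with each array probe set annotated to exactly 1 gene symbol that is one of these, and they are 9 of the 18193 genes represented on the array. The rule found 17 probe sets, of which 13 were ordinary probe sets and 4 were array control probe sets for Pcx, which stayed out of the tests across the array. A probe set was marked as varying where its 6 values ranged over more than 0.01. Of the 17, 14 varied and 3 did not (1 for Pck1 and 2 controls for Pcx), and each of the 9 genes had at least 1 varying probe set. The narrowest range among the varying ordinary probe sets was 0.0546, that of Fbp1, and the widest below the mark was 1.3e-08.

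Liver of male BALB/cCrSlc mice was compared between 2 purified low-protein diets, 6C+4CP and 10C, with 3 mice per diet and 1 Affymetrix 3' expression array per mouse. The 6C+4CP diet held 6% casein and 4% collagen peptide of fish origin, the 10C diet held 10% casein, and both were built on AIN-93M with cornstarch in place of the missing protein. The effect of less casein and that of the peptide cannot be told apart in this design, and no mouse here ate a diet with more protein. All mice were housed singly and fed for 10 weeks. They were 17 weeks old when their livers were taken in the morning, 3 h after food was removed, and the 3 of each diet were picked from 12 for medium weight gain per food eaten. A further diet group that the design text counts is not analysed here.

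The deposited values were read as log2, although no source used here states the base, and folds below rest on that reading. Of 45037 ordinary probe sets 7791 (17.3%) varied. The others held the same value on all 6 arrays, which does not show whether their transcript differed. With limma across all ordinary probe sets, 109 of 45037 (0.242%) had a Benjamini-Hochberg adjusted p under 0.05, but 103 of these 109 did not vary and differed between the diets by at most 1.3e-08. In the limma fit of varying probe sets alone 0 of 7791 passed (0%), with 1140 at an unadjusted p under 0.05. One mouse, 10C replicate 3, resembled 6C+4CP replicate 2 (r = 0.985 across varying probe sets, which are not replicates) more than the other 10C mice (0.971 and 0.973), so differences of the 9 genes, at their brightest probe sets, and of named list genes that it turned or moved by over 1.5 times are also given without it. The values come from a piece of liver with all its cell types, in which fewer cells of a type and less RNA per cell cannot be told apart.

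Hepatocytes keep blood glucose steady between meals. They build glucose from lactate, amino acids and glycerol by gluconeogenesis, in which pyruvate carboxylase (Pcx) and the cytosolic phosphoenolpyruvate carboxykinase (Pck1) bypass the irreversible pyruvate kinase step and fructose-1,6-bisphosphatase (Fbp1) bypasses phosphofructokinase. Glucose-6-phosphate, which also comes from glycogen, is carried into the endoplasmic reticulum by the transporter encoded by Slc37a4 and split there by glucose-6-phosphatase (G6pc). Glycogen synthase 2 (Gys2) and glycogen phosphorylase (Pygl) of liver store and free glucose units. GLUT2, encoded by Slc2a2, lets glucose across the plasma membrane, and liver pyruvate kinase (Pklr) closes glycolysis.

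Gys2 was the 1 gene of the 9 in which no mouse of a diet overlapped the other diet, and it was higher in 6C+4CP. Slc37a4, G6pc and Pklr had lower means in 6C+4CP, by 0.58 to 0.76 on the log2 scale, with overlap between the mice. Fbp1 was nearly level across all mice. Limma called 0 of the 13 tested probe sets in the fit of all probe sets. Of the 13, 2 had an unadjusted p under 0.05, Gys2 and the Pck1 probe set that did not vary, beside 2890 of all 45037. In the fit of varying probe sets limma called 0 of 12. Of the 12, 2 had an unadjusted p under 0.05, Gys2 and Slc37a4, beside 1140 of all 7791. In all, 3 genes had a higher and 6 a lower mean in 6C+4CP, and the median difference was -0.30, beside -0.00513 over all 4074 genes whose brightest probe set varied. That median moved with single mice: it was -0.26, -0.072 and -0.28 when 6C+4CP replicate 1, 2 or 3 was left out, and -0.16, -0.10 and -0.46 when 10C replicate 1, 2 or 3 was. The share of genes without overlap was 1 of 9, where 21.4% of the 4074 genes showed none, 11.8% as higher in 6C+4CP and 9.52% as lower.

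**Figure D1:**
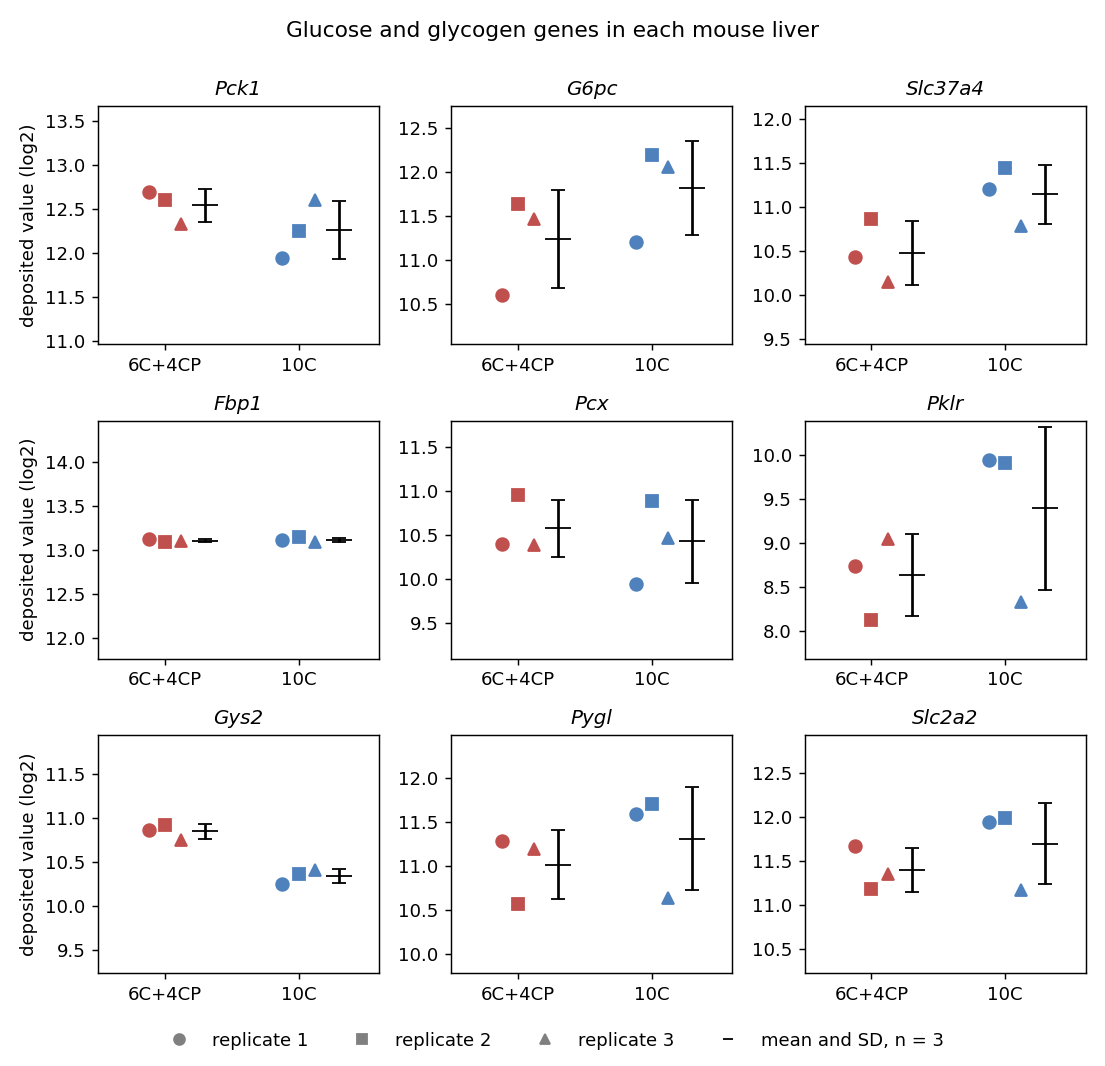
Deposited value (log2) of the brightest probe set of each gene in each mouse, with 6C+4CP in red and 10C in blue, the marker shape giving the replicate number and the black bar the mean and SD of 3 mice; each panel spans the same number of log2 units. The Gys2 points of 6C+4CP (10.75 to 10.92) all lie above those of 10C (10.25 to 10.40), while the points of the other 8 genes overlap.

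Gys2 makes glycogen from UDP-glucose and is the isoform of liver. Its value was 10.86, 10.92 and 10.75 in the 6C+4CP mice and 10.25, 10.36 and 10.40 in the 10C mice. The lowest 6C+4CP mouse was 0.35 above the highest 10C mouse, and the mice of each diet lay within 0.17 (6C+4CP) and 0.16 (10C) of each other. The means were 10.84 ± 0.085 in 6C+4CP and 10.34 ± 0.081 in 10C (SD, n = 3 each), a difference of 0.51 (SE 0.066, 95% interval 0.33 to 0.69) or 1.42-fold. The difference had an adjusted p of 0.304 by limma over all probe sets and 0.101 over varying ones, and 0.101 to 0.64 over all alternatives but 1. The exception, centring on the median of varying probe sets (1.69e-06), shifts every unvarying probe set and so changes the spread that limma pools. An exact two-sided permutation test gave p = 0.1, the smallest that 3 against 3 allows. Leaving out any 1 mouse kept the difference between 0.46 and 0.55. Thus Gys2 differed by more than the spread within either diet and did not pass the correction for the whole array.

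Pygl, the phosphorylase that frees glucose units from liver glycogen, read 11.28, 10.56 and 11.19 in the 6C+4CP mice and 11.59, 11.70 and 10.63 in the 10C mice. The 6C+4CP mice spanned 0.73 and the 10C mice 1.07, and 10C replicate 3 lay among the lowest values. The means were 11.01 ± 0.40 and 11.31 ± 0.59 (SD, n = 3 each) in 6C+4CP and 10C, a difference of -0.30 (SE 0.40, 95% interval -1.40 to 0.81, limma adjusted p = 0.91). Dropping 10C replicate 3 gave -0.64, whereas dropping 6C+4CP replicate 2 gave -0.072 and dropping 10C replicate 1 or 2 gave -0.16 or -0.10.

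The last steps of glucose release are shared by gluconeogenesis and glycogen breakdown. G6pc read 10.60, 11.64 and 11.46 in the 6C+4CP mice and 11.20, 12.19 and 12.06 in the 10C mice. The lowest mouse of all was 6C+4CP replicate 1, and 10C replicate 1 lay below the other 2 mice fed 6C+4CP. The means were 11.23 ± 0.56 in 6C+4CP and 11.82 ± 0.54 in 10C (SD, n = 3 each), so the 6C+4CP mean was 0.668 times that of 10C. The log2 difference of -0.58 (SE 0.44, 95% interval -1.78 to 0.62, limma adjusted p = 0.852) lay within the spread of the mice. Dropping 10C replicate 1 gave -0.89, with no overlap left, whereas dropping 6C+4CP replicate 1 gave -0.26.

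Slc37a4, the glucose-6-phosphate carrier, read 10.43, 10.87 and 10.15 in the 6C+4CP mice and 11.21, 11.44 and 10.78 in the 10C mice. Only 6C+4CP replicate 2 and 10C replicate 3 crossed, by 0.09. The mean was 10.48 ± 0.36 in 6C+4CP and 11.14 ± 0.33 in 10C (SD, n = 3 each), a log2 difference of -0.66 (SE 0.28, 95% interval -1.43 to 0.11) or 0.633 times the 10C mean. Limma gave an adjusted p of 0.704 over all probe sets and 0.322 over varying ones. The difference lay between -0.85 and -0.49 when any 1 mouse was left out, and dropping either of the crossing mice removed the overlap. Glucose release is strongest in hepatocytes of the periportal part of the lobule. The 5 varying periportal hepatocyte markers of 7 measured (Sds and Gls2 had no probe set used here) had a mean value of 11.74 to 11.77 in the 6C+4CP mice and 11.88 to 11.93 in the 10C mice. All 5 had a lower mean in 6C+4CP, Cps1 (-0.27) and Hal (-0.26) without overlap, and Pigr (-0.14), Cyp2f2 (-0.062) and Arg1 (-0.042) with overlap. Of all 4074 varying genes 2120 had a lower mean in 6C+4CP, and 9.52% were lower without overlap. The lower values were not particular to periportal markers. Of 7 varying pericentral markers 5 were lower and 2 higher, with means of 9.15 to 9.42 in 6C+4CP and 9.35 to 9.58 in 10C. The part of hepatocyte zones in the lower values of G6pc and Slc37a4 was not tested.

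The promoters of both genes, from RefSeq (GRCm38.p6) and running from 250 bases before to 50 after the annotated start, are printed 5′ to 3′ because fasting signals act on glucose release partly through such sites. Capitals mark the insulin response motif CAAAACA on either strand in G6pc and the core of the cyclic AMP response element, ACGTCA on either strand, in Slc37a4.
G6pc, chr11:101367466-101367765, plus strand: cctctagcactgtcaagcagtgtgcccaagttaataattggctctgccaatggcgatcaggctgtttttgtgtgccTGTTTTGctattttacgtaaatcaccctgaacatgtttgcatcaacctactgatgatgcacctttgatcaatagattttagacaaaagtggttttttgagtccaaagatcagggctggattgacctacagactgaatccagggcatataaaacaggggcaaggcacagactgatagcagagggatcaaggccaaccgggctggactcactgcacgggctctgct
Slc37a4, chr9:44396696-44396995, plus strand: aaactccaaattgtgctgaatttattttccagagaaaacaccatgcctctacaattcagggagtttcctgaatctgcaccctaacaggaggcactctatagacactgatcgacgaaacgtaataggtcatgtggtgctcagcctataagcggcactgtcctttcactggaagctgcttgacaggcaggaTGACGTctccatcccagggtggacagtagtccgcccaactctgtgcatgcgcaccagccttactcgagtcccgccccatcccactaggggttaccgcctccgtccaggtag
The insulin response motif began 174 bases before the G6pc start, and 6.28% of all 32851 promoters in the table held it. The cyclic AMP core began 61 bases before the start of Slc37a4 shown, the most upstream of its listed starts, and 7.51% of all promoters held it. The same letters lay 214 bases before the next listed start, and the window of the most downstream start did not hold the core. Which start these livers used is not known here. These matches describe the letters and say nothing of binding in these livers.

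Pck1, the cytosolic enzyme that makes phosphoenolpyruvate, had a higher mean in 6C+4CP with overlap between the mice. It read 12.69, 12.60 and 12.33 in the 6C+4CP mice and 11.94, 12.25 and 12.60 in the 10C mice at its brightest probe set. The 10C mice spanned 0.66 and their replicate 3 lay within the 6C+4CP range. The means were 12.54 ± 0.19 in 6C+4CP and 12.26 ± 0.33 in 10C (SD, n = 3 each), a difference of 0.28 (SE 0.21, 95% interval -0.31 to 0.86, limma adjusted p = 0.852). Dropping 10C replicate 3 gave 0.44, with no overlap left, whereas dropping 10C replicate 1 gave 0.12.

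A second varying probe set of Pck1 read 9.94, 10.00 and 10.09 in the 6C+4CP mice and 9.12, 9.80 and 10.46 in the 10C mice. The 6C+4CP mice lay within 0.15 of each other and inside the 10C range, which spanned 1.34, and the difference of 0.21 (SE 0.38) had the same sign as at the brighter probe set. The third Pck1 probe set held 5.42 on all arrays. The Pck1 promoter is a textbook target of cyclic AMP signalling, and capitals mark the ACGTCA core, which began 91 bases before the start.
Pck1, chr2:173152823-173153122, plus strand: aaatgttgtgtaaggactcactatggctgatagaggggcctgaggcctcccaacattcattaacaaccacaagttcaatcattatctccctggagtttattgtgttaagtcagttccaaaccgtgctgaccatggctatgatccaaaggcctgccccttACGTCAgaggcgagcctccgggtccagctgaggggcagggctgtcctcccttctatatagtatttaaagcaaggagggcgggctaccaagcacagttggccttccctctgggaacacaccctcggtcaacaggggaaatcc

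Pcx, which turns pyruvate into oxaloacetate in mitochondria, read 10.39, 10.95 and 10.38 in the 6C+4CP mice and 9.94, 10.88 and 10.46 in the 10C mice. Replicate 2 was the highest mouse of each diet and the diets overlapped. The difference between 10.57 ± 0.33 in 6C+4CP and 10.43 ± 0.47 in 10C (SD, n = 3 each) was 0.15 (SE 0.33, 95% interval -0.74 to 1.04, limma adjusted p = 0.96), but -0.097 once 10C replicate 1 was dropped and -0.042 once 6C+4CP replicate 2 was. At both varying array control probe sets for Pcx, replicate 2 was again the highest mouse of each diet, with 10.58 in 6C+4CP and 10.48 in 10C at the brighter one and 7.97 in 6C+4CP and 8.08 in 10C at the dimmer one. Their differences were 0.080 and -0.058, and an exact two-sided permutation test gave p = 0.9 and p = 0.8. Pcx thus showed no difference between diets larger than the spread of the mice at any of its probe sets.

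Fbp1 was the steadiest of the genes. It read 13.12, 13.09 and 13.10 in the 6C+4CP mice and 13.11, 13.14 and 13.09 in the 10C mice, a difference of -0.0090 (SE 0.017, limma adjusted p = 0.947). The 95% interval was -0.056 to 0.038 in the fit of all probe sets and -0.092 to 0.074 (SE 0.033) in the fit of varying ones. With limma's trend and robust options the SE was 94, far beyond the range of the 6 values (0.0546). That fit therefore gives no usable interval for Fbp1. The difference was -0.0213 with 10C replicate 3 left out, and the sign turned without 10C replicate 2 (0.0060) and after quantile normalization (0.0082).

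**Figure D2:**
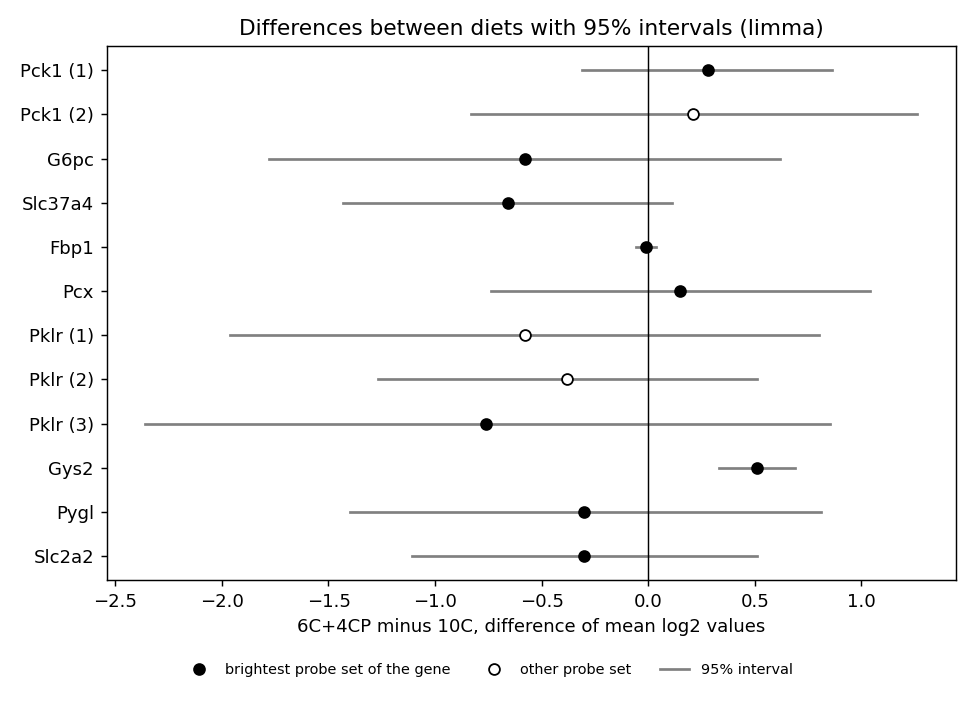
Difference of mean log2 values, 6C+4CP minus 10C, for the 12 varying tested probe sets of the 9 genes, with 95% intervals from limma without correction for multiple tests; filled points are the brightest probe set of a gene and open points its others. The interval of Gys2 (0.33 to 0.69) lies above 0 and all others include 0.

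Pklr makes pyruvate at the end of glycolysis and feeds carbon to fat synthesis. Its brightest probe set read 8.74, 8.13 and 9.05 in the 6C+4CP mice and 9.95, 9.91 and 8.33 in the 10C mice, the widest range of the 9 genes (1.82, or 3.53-fold between the extreme mice). The first 2 mice fed 10C stood above all mice fed 6C+4CP, while 10C replicate 3 lay below all but 6C+4CP replicate 2. The means were 8.64 ± 0.47 in 6C+4CP and 9.40 ± 0.92 in 10C (SD, n = 3 each), a difference of -0.76 (SE 0.59, 95% interval -2.36 to 0.85, limma adjusted p = 0.852). The other Pklr probe sets gave -0.58 (SE 0.50) and -0.38 (SE 0.32). Dropping 10C replicate 3 gave -1.29, with no overlap left, although limma did not call Pklr in that fit either, and dropping 10C replicate 1 gave -0.48.

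Slc2a2, the GLUT2 gene, read 11.67, 11.18 and 11.36 in the 6C+4CP mice and 11.94, 11.99 and 11.17 in the 10C mice. As for Pklr, 10C replicates 1 and 2 were the highest and 10C replicate 3 was among the lowest. The means were 11.40 ± 0.24 in 6C+4CP and 11.70 ± 0.46 in 10C (SD, n = 3 each), a difference of -0.30 (SE 0.30, 95% interval -1.11 to 0.51, limma adjusted p = 0.856). Dropping 10C replicate 3 gave -0.57, whereas dropping 10C replicate 2 gave -0.15.

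**Figure D3:**
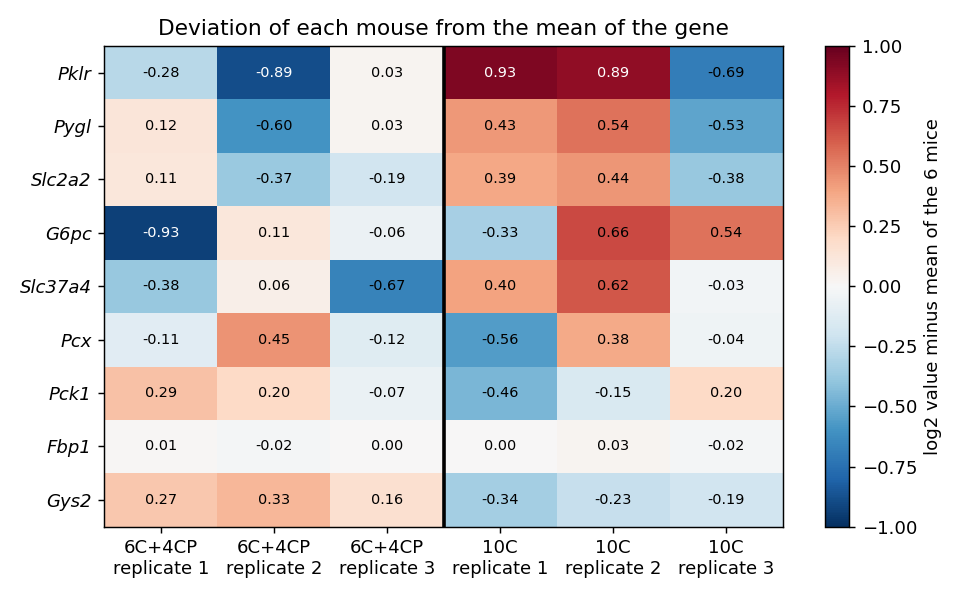
Each cell gives the log2 value of 1 mouse minus the mean of all 6 mice for the brightest probe set of the gene named at the left, red above and blue below that mean, with 6C+4CP mice left of the black line. Pklr, Pygl and Slc2a2 are highest in 10C replicates 1 and 2 and lowest in 10C replicate 3 and 6C+4CP replicate 2, and the Gys2 row changes sign at the line.

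Pklr, Pygl and Slc2a2 ordered the mice alike: the 2 highest were 10C replicates 1 and 2, and the 2 lowest were 10C replicate 3 and 6C+4CP replicate 2. The 3 are 33.3% of the 9 genes, and 153 of all 4074 varying genes (3.76%) showed the same order, which was noticed in the data and not tested. Relative to the mean of the 6 mice, 6C+4CP replicate 2 stood at -0.89 for Pklr, -0.60 for Pygl and -0.37 for Slc2a2, and 10C replicate 3 at -0.69, -0.53 and -0.38 for the same genes. Leaving out 10C replicate 3 raised the count of the 9 genes without overlap to 6 (Pck1, Slc37a4, Pklr, Gys2, Pygl and Slc2a2), where 40.1% of all varying genes then showed none. Leaving out any other single mouse gave 1 or 2, with Gys2 among them each time, where 28.6% to 34.3% of all varying genes showed none. Other genes singled out after their values were seen set the same mice apart. Igfbp1, whose transcript insulin lowers, read 8.53, 11.71 and 9.0 in the 6C+4CP mice and 9.01, 10.24 and 11.92 in the 10C mice. Dbp, a circadian output gene with a steep daily rhythm in liver, read 11.20, 9.57 and 10.76 in the 6C+4CP mice and 10.46, 10.23 and 7.69 in the 10C mice. In Igfbp1 and Dbp the mice at the extreme were again 10C replicate 3 and 6C+4CP replicate 2. Other genes that respond to fasting or insulin varied in this. Irs2 was highest in the same mice (7.34 and 7.22). Fgf21 was highest (8.07) and Fasn lowest (7.89) in 6C+4CP replicate 3. For Fasn, 6C+4CP replicate 2 (7.93) lay close to that value, and 10C replicate 3 (8.59) was the lowest of its diet. Srebf1 was lowest of each diet in 6C+4CP replicate 2 (8.16) and 10C replicate 3 (9.23). Angptl4 (10.89 and 10.55) and Cpt1a (10.94 and 10.40) were highest of each diet in these mice. For Srebf1, 6C+4CP replicate 3 (8.95) lay below 10C replicate 3, and for Angptl4 it lay above (10.64). Cpt1a in 10C replicate 3 lay below all 6C+4CP mice. Hlf, another listed regulator, stayed within 8.09 to 8.19. The part of feeding signals or daily rhythm, which Igfbp1 and Dbp follow, in the values of Pklr, Pygl and Slc2a2 was not tested.

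The promoters of the 3 genes with that order are shown together because the genes ordered the mice alike. Pklr has an erythroid and a liver start, and the downstream start is shown. Capitals mark the carbohydrate response element, an E-box pair with the letters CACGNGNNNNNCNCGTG on either strand, which binds ChREBP (gene Mlxipl) and Mlx.
Pklr, chr3:89136373-89136672, plus strand: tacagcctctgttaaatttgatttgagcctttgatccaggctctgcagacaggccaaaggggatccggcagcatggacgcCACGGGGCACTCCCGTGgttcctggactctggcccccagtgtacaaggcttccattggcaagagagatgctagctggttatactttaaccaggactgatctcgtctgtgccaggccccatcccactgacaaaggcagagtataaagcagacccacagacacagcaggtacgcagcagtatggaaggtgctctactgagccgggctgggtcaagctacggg
Pygl, chr12:70227634-70227933, minus strand: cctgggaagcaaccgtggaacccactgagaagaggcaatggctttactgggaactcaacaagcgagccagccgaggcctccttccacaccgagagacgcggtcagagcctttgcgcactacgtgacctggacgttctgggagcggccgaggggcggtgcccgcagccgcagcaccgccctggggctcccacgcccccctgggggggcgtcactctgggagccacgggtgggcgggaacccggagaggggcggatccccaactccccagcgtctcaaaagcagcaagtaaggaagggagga
Slc2a2, chr3:28697653-28697952, plus strand: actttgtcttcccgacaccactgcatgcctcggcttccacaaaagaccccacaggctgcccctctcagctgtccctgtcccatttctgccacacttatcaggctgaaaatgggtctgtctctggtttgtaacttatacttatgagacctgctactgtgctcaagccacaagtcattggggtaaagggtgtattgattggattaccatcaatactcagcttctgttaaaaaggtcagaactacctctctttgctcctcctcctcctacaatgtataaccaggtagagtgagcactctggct
The element in Pklr began 170 bases before the start, and 15 of 32851 promoters (0.0457%) held these letters. The other 2 windows did not hold them, which says only that the letters are not in these 300 bases. The E-box CACGTG, found in 7.15% of all promoters, was in none of the 3 and lay 248 bases before the upstream Pcx start. Mlxipl itself read 9.45, 8.91 and 9.23 in the 6C+4CP mice and 9.35, 9.41 and 9.35 in the 10C mice, a difference of -0.17 (SE 0.15, limma adjusted p = 0.852).

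Most genes of related isoforms, many of them used by other tissues, held the same value on all arrays. Of 11 such genes, Pck2, G6pc3, Fbp2, Pkm, Gys1, Pygb, Pygm, Slc2a1, Slc2a3, Slc2a4 and Slc2a5, 9 had no varying probe set and 2, Slc2a1 and Slc2a3, had 1 each. Slc2a1, the GLUT1 gene, read 7.53, 8.17 and 7.48 in the 6C+4CP mice and 6.54, 6.97 and 7.64 in the 10C mice. The diets overlapped through 10C replicate 3, and the difference was 0.68 (SE 0.38, limma adjusted p = 0.777).

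The wider network of glucose genes was described by 6 lists with 123 symbols besides the 9 genes. Of these, 112 had a probe set, 66 varied, 37 with a higher and 29 with a lower mean in 6C+4CP, and the median difference was 0.020. The diets did not overlap in 13 of the 66 (19.7%, against 21.4% of all varying genes), 12 higher and 1 lower in 6C+4CP. Without 10C replicate 3 the count was 33, 18 higher and 15 lower (50.0%, against 40.1% of all varying genes). Without 6C+4CP replicate 2 it was 25, 17 higher and 8 lower (37.9%, against 34.3%). It was 15 to 17 when any other mouse was left out (22.7% to 25.8%, against 28.6% to 31.7%). Limma called 1 of the 112, Epm2a, which did not vary (its values differed by 1.0e-09), so 0 varying genes of these lists passed. The counts below therefore describe values and no list was tested.

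Of 17 measured genes of gluconeogenesis and glucose release 10 varied, 5 higher and 5 lower, with a median difference of 0.00057. The diets did not overlap in 4 of the 10, 3 higher and 1 lower, where 21.4% of all varying genes showed no overlap. Aqp9, the channel that admits glycerol to hepatocytes, read 11.03, 10.67 and 10.87 in 6C+4CP and 10.64, 10.51 and 10.54 in 10C, a difference of 0.29 (SE 0.11, limma adjusted p = 0.704) without overlap. Ldha, of lactate dehydrogenase, differed by 0.15 (SE 0.049) and Mdh1, the cytosolic malate dehydrogenase, by 0.17 (SE 0.081), or 0.11 with 10C replicate 3 left out, both without overlap among all mice and both higher; Mdh1 was named after its values were seen. Got1, the cytosolic aspartate aminotransferase, read 8.32, 9.04 and 9.22 in 6C+4CP and 10.70, 9.67 and 9.54 in 10C, a difference of -1.11 (SE 0.45, limma adjusted p = 0.704), the 1 gene of the 66 that was lower without overlap. Tpi1, triose phosphate isomerase, differed by -0.023 (SE 0.0093).

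Of 25 measured glycogen genes other than Gys2 and Pygl 12 varied, 7 higher and 5 lower, with a median of 0.010. The 2 of these 12 without overlap were both higher in 6C+4CP, where 21.4% of all varying genes showed no overlap. Ppp1r3g, a subunit that directs protein phosphatase 1 to glycogen, read 7.66, 8.14 and 8.37 in 6C+4CP and 6.89, 7.35 and 7.16 in 10C, a difference of 0.93 (SE 0.24, limma adjusted p = 0.619). Stbd1, a glycogen-binding protein, read 10.63, 9.80 and 10.65 in 6C+4CP and 9.57, 9.64 and 9.27 in 10C, a difference of 0.86 (SE 0.30, limma adjusted p = 0.704). Another targeting subunit, Ppp1r3b, had a difference of -0.52 (SE 0.21) with overlap, and the phosphorylase kinase subunit Phkb one of 0.081 (SE 0.044). Ppp1r3c, also a targeting subunit, was named after its values were seen. It read 8.31, 8.83 and 7.59 in 6C+4CP and 8.34, 9.43 and 10.11 in 10C. Its mean was lower in 6C+4CP (8.24) than in 10C (9.29), with overlap (limma adjusted p = 0.801), and 10C replicate 3 was its highest mouse. Glycogen targeting subunits thus had differences of both signs beside the higher Gys2, with Ppp1r3g higher and Ppp1r3b and Ppp1r3c lower.

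Among glucose, lactate and mitochondrial carriers 7 of 13 measured varied, 6 higher and 1 lower, with a median of 0.22. The diets did not overlap in 2 of the 7, both higher, where 21.4% of all varying genes showed no overlap. Slc25a10, the mitochondrial dicarboxylate carrier, read 9.09, 9.11 and 9.07 in 6C+4CP and 8.78, 8.92 and 8.89 in 10C, a difference of 0.22 (SE 0.045, limma adjusted p = 0.51) without overlap. Slc16a7, a monocarboxylate transporter, differed by 0.51 (SE 0.16) without overlap, and its relative Slc16a1 by 0.43 (SE 0.26) with overlap.

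Of 31 measured transcriptional regulators 21 varied, 15 higher and 6 lower, with a median of 0.12. In 5 of the 21 the diets did not overlap, all higher in 6C+4CP, where 21.4% of all varying genes showed no overlap, 11.8% as higher. Hnf4a, a nuclear receptor that keeps hepatocyte genes active, read 11.49, 11.41 and 11.45 in 6C+4CP and 11.22, 10.80 and 11.13 in 10C, a difference of 0.40 (SE 0.13, limma adjusted p = 0.704). Sirt1, a deacetylase active in fasting, differed by 0.49 (SE 0.13), Ppargc1b, a coactivator, by 0.27 (SE 0.087), and Klf15, a factor that promotes amino acid use for gluconeogenesis, by 0.15 (SE 0.042). The fifth was Nr1i2, the xenobiotic receptor PXR, with 0.41 (SE 0.17), named after its values were seen.

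Glycolysis and fructose genes and the pentose phosphate pathway had no gene without overlap, where 21.4% of all varying genes showed none. In the glycolysis list 9 of 19 measured genes varied, 2 higher and 7 lower (median -0.11), and in the pentose phosphate list 7 of 7, 2 higher and 5 lower (median -0.027). Tkfc, the triokinase of fructose breakdown, differed by -0.55 (SE 0.40), Pfkfb3, which makes the activator of phosphofructokinase, by 0.66 (SE 0.43), and Txnip, a glucose-induced gene, by -0.10 (SE 0.084). Without 10C replicate 3 the difference was -0.93 for Tkfc and 0.33 for Pfkfb3. In the pentose phosphate list the differences were -0.61 (SE 0.46) for Pgd, 0.26 (SE 0.24) for H6pd, 0.20 (SE 0.28) for Tkt and -0.034 (SE 0.017) for Pgls, the enzymes of its oxidative steps apart from Tkt. When 10C replicate 3 was left out, that of Tkt turned to -0.065, that of H6pd was 0.46 and that of Pgd was -1.0.

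**Figure D4:**
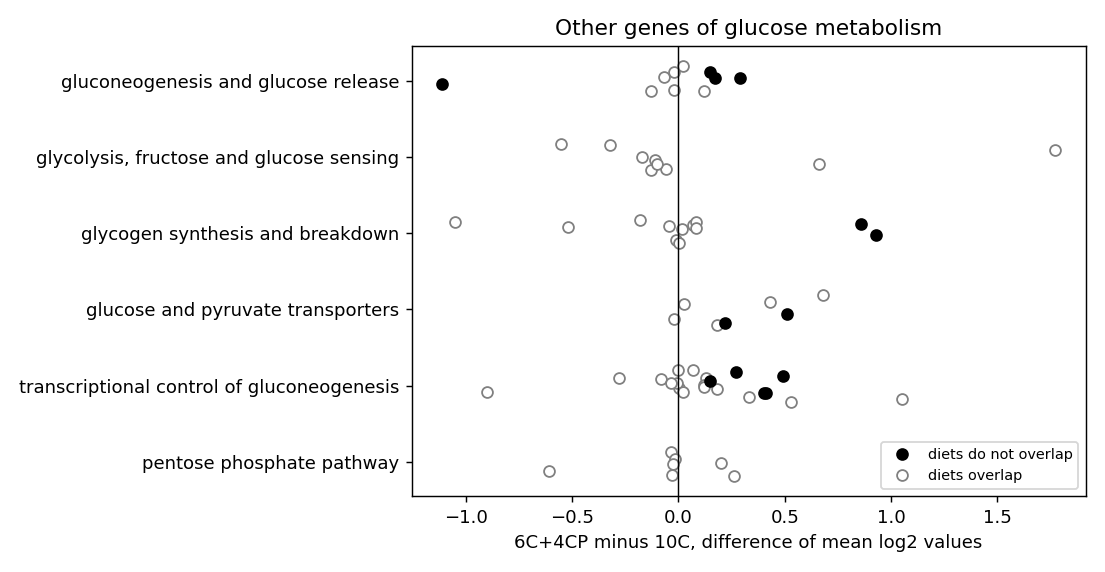
Difference of mean log2 values, 6C+4CP minus 10C, for the 66 varying genes of the 6 lists, 1 point per gene, spread vertically within a list for legibility; filled points are genes whose diets do not overlap. Of the 13 filled points 12 lie to the right of 0 and 1, Got1, lies at -1.11.

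Genes whose values ran most like the 2 most variable members were found by the root mean square difference of centred log2 values over the 6 mice. For Pklr they were Pgd, of the pentose phosphate pathway (0.185), Thrsp, a factor of fat synthesis (0.237), and Stra6l (0.253). Thrsp read 12.45, 11.15 and 12.70 in 6C+4CP and 13.49, 13.59 and 11.79 in 10C. For G6pc they were Ccn2 (0.186), the prion protein gene Prnp (0.195) and Derl3, of endoplasmic reticulum associated degradation (0.198). Derl3 read 6.68, 7.12 and 7.01 in 6C+4CP and 6.96, 8.05 and 7.83 in 10C, and as for G6pc the replicate 1 mouse was the lowest of each diet.

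The labelled tissue was checked against marker genes. The albumin gene held the same value on all arrays, the 6 varying hepatocyte markers of 7 measured averaged 12.86 to 13.08 in the 6C+4CP mice and 12.92 to 13.04 in the 10C mice, and 0 of 5 measured markers each of cholangiocytes, pancreatic acinar cells and skeletal muscle varied. Lack of variation does not show whether those cells were present, so their markers do not check the tissue. The 6 varying Kupffer cell and macrophage markers of 9 averaged 8.12 to 8.68 in 6C+4CP and 8.32 to 8.82 in 10C, the 4 varying stellate cell markers of 7 averaged 7.79 to 7.88 in 6C+4CP and 7.73 to 7.92 in 10C, and 1 of 7 endothelial markers, Stab1, varied. The 7 varying pericentral hepatocyte markers of 10 averaged 9.15 to 9.42 in 6C+4CP and 9.35 to 9.58 in 10C. Hepatocyte markers without overlap were Cps1 (-0.27), Hal (-0.26), Apoa1 (-0.11) and Cyp27a1 (-0.38), lower in 6C+4CP, and Ttr (0.032), higher. They were 3 of 6 varying general, 2 of 5 periportal and 1 of 7 pericentral markers, with Cps1 counted as general and as periportal. Over all varying genes 21.4% showed no overlap. Of 7 genes that respond to fasting or insulin, Cpt1a (0.58) and Fgf21 (0.84) were higher and Fasn (-2.37) lower in 6C+4CP without overlap, with limma adjusted p from 0.572 to 0.704. These were 3 of the 7, and 21.4% of all varying genes showed no overlap between the diets. Of 8 varying acute phase genes, Saa1 and Saa2 stood out in 1 mouse, 10C replicate 2. Saa1 read 7.87, 7.54 and 9.13 in the 6C+4CP mice and 7.68, 14.03 and 8.84 in the 10C mice, and Saa2 reached 11.52 in that mouse. Lcn2 was also highest there, with 6.09, 6.14 and 6.78 in the 6C+4CP mice and 6.48, 7.34 and 6.25 in the 10C mice. The mean of the 6 genes other than Saa1 and Saa2, Lcn2 among them, was 9.67 to 9.99 in the 6C+4CP mice. It was 9.72, 9.96 and 9.64 in the 10C mice, so on that mean, though not for Lcn2 alone, 10C replicate 2 lay within the 6C+4CP range. Without that mouse the differences of G6pc and Slc37a4 were -0.40 and -0.51, and that of Gys2 was 0.52.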

How the data were processed

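Each of 6 mice gave 1 liver array. Total RNA was column-purified and biotin-labelled from 100 ng with a 3' IVT kit, per the labels' protocols. The values used are the authors' deposited log2-like values, made with R 2.7.2 per the submitters' processing notes. How background was corrected, how probes were summarised and which log base was taken is stated in no source used here. Array medians lay at 6.306 to 6.308 and single values at 4.76 to 14.48, and all were read as log2. The number of mice, 3 per diet, limits the precision.

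Of 45101 probe sets, 64 array controls were left out of tests. GEO's platform annotation gave 1 symbol to 34945 of the other 45037 and several to 932, which named no gene. The brightest probe set stood for each gene. Groups and replicate numbers came from the sample titles, and each array is a separate mouse.

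The 2 diets were tested by limma 3.58.1 (R 4.3.3; lmFit, eBayes, no covariates), with Benjamini-Hochberg adjustment over all 45037 probe sets and a threshold of 0.05, after tests on simulated data. Differences are 6C+4CP minus 10C. Single values had exact permutation tests. Alternatives were a replicate block, leaving out each mouse, quantile normalization, median centring, filters on varying and on bright probe sets, limma's trend with its robust option, and probe set means. Leaving out single mice for list genes and for counts without overlap, and the acute phase mean without Saa1 and Saa2, were added after seeing the data.

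Lists held 205 symbols, 189 with a probe set. In each of the 6 glucose lists the 4 genes with the smallest p were named. The members and lists were chosen with earlier results of these data known. Promoters come from RefSeq (GRCm38.p6) for 8 of the 9 genes, 12 starts in all. Motif letters were set with the data at hand, and the carbohydrate response element was added after the promoter letters were seen.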

Additional observations from a re-analysis of the deposited data

How the results depend on the processing

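No alternative turned the sign of Pck1, G6pc, Slc37a4, Pklr, Gys2, Pygl or Slc2a2. Fbp1 turned after quantile normalization (0.00821) and lay between -0.0213 and 0.006 when 1 mouse was left out, and Pcx lay between -0.0968 and 0.37. Of the named list genes only Tkt turned, with -0.0653 to 0.39 when 1 mouse was left out, a setting chosen for these genes after seeing the data. With 1 mouse left out, the count of the 9 genes without overlap ran from 1 to 6, where 28.6% to 40.1% of all varying genes showed none. The median difference of the 9 genes then ran from -0.459 to -0.0721. Limma called 0 member probe sets under all alternatives but the centring of arrays on the median of varying probe sets, which called 8. That setting adds an offset to every unvarying probe set, and the fit then gave each of the 9 genes the same SE of 0.090, so its calls follow from its construction. Over the whole array it called 1324 probe sets, against 109 in the fit of the report, 285 to 398 with 1 mouse left out, 3 with the replicate block, 1 after quantile normalization, and 0 each among varying probe sets, among the brighter part and with trend and robust estimation (unadjusted p under 0.05 for 1140, 1842 and 2685). The replicate number did not pair the mice: same-numbered mice had correlations of their deviations from the diet means of 0.477, -0.0893 and 0.0847, and not each mouse resembled its own number most. The replicate block changed no call of a member.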

Other observations

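Of the 66 varying genes of the glucose lists, 7 (10.6%, beside 3.76% of all varying genes) had the order of the mice seen in Pklr, Pygl and Slc2a2, with 10C replicates 1 and 2 highest and 10C replicate 3 and 6C+4CP replicate 2 lowest. They were Gckr, Gyg, Khk, Pgd, Rpia, Tkfc and Ugp2, from 3 of the 6 lists. Khk, the ketohexokinase that starts fructose breakdown, read 11.11, 10.92 and 11.11 in the 6C+4CP mice and 11.58, 11.75 and 10.78 in the 10C mice. Ugp2, which makes the UDP-glucose that glycogen synthase uses, read 11.81, 11.41 and 11.80 in the 6C+4CP mice and 12.29, 11.98 and 11.31 in the 10C mice. Gckr, the regulator of glucokinase, read 9.62, 9.26 and 9.63 in the 6C+4CP mice and 9.88, 9.74 and 9.27 in the 10C mice. These genes were chosen after their values were seen, and the order was not tested.

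Pdk4, a kinase that closes the entry of pyruvate to the citrate cycle in fasting, read 5.87, 9.67 and 9.47 in the 6C+4CP mice and 5.51, 5.35 and 8.83 in the 10C mice. Its 3 high mice came from both diets, and 10C replicate 3 and 6C+4CP replicate 2 were among them.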
